A study of Mus musculus with 12 samples.

Results

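Chaperone and heat shock genes were followed across 4 lines of 393P, cells of a murine lung adenocarcinoma described in the labels as epithelial and non-metastatic. The members were all genes of the count table whose symbol marks an Hsp, DNAJ (A, B or C), Cct, Tcp1, Bag1 to Bag6, Hsf1 or Hsf2 gene, without the endoplasmic reticulum stress genes Hspa5, Hsp90b1, Dnajb9 and Dnajc3. They numbered 72 of 12208 genes, and 71 of them passed the filter on low counts. The group is not purely cytosolic, because 9 members are textbook mitochondrial proteins and 7 were assigned to the endoplasmic reticulum.

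The lines carried the Zeb1 form labelled mimetic, the form labelled deficient, wild-type Zeb1 (WT), or a GFP vector, with 3 libraries each. All were grown untreated in the same medium. Zeb1 is the zinc-finger repressor that drives epithelial-mesenchymal transition. From the series title, which concerns acetylation of this protein, the mutants are read as acetylation-mimetic and acetylation-deficient. Each form is 1 line and no label says whether a line is a clone or a pool, so the form and the line cannot be told apart. The labels number the libraries as biological replicates 1 to 3, whereas the series text speaks of 2 replicates.

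Molecular chaperones help proteins fold and keep damaged ones from clumping. Hsp70 proteins bind short hydrophobic stretches in a cycle of ATP hydrolysis that J proteins start. Nucleotide exchange factors, such as the Hsp110 and several BAG proteins, reset it. Hsp90 finishes kinases and receptors, and the ring-shaped TRiC chaperonin folds actin and tubulin. On heat or proteotoxic stress, the transcription factor Hsf1 binds heat shock elements in the promoters of inducible members. In cancer cells these systems are known for holding unstable signalling proteins in a working state.

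Heat shock elements are arrays of GAA units in alternating orientation, and the promoters that carry them are shown because these members moved in different directions across the lines. Promoter windows (250 bases before to 50 after an annotated start, RefSeq, GRCm38.p6) were at hand for 57 of the 72 members. The 3-unit element GAANNTTCNNGAA, on either strand, stood in 4 of these 57 genes, namely Hspe1, Hspd1, Hsph1 and Dnajb6. By window the share was 8.11% of 74 member windows and 0.603% of all 32851 windows. The member share is 6 windows of those 4 genes, and Hspe1 and Hspd1 hold the same stretch, so these are not separate matches. By gene, 179 of all 27025 genes with a window held the element. The 2-unit form GAANNTTC, which every 3-unit match also holds, stood in 21.6% of member windows, with 1 in the window of Hspa1b, the stress-inducible Hsp70, and in 15.1% of all windows. Capitals below mark the 3-unit element, or the 2-unit form in Hspa1b. The windows lie at chr1:55087898-55088197, plus strand (Hspe1), chr1:55087883-55088182, minus strand (Hspd1), chr5:149636266-149636565, minus strand (Hsph1), chr5:29735648-29735947, plus strand (Dnajb6) and chr17:34959189-34959488, minus strand (Hspa1b).
Hspe1: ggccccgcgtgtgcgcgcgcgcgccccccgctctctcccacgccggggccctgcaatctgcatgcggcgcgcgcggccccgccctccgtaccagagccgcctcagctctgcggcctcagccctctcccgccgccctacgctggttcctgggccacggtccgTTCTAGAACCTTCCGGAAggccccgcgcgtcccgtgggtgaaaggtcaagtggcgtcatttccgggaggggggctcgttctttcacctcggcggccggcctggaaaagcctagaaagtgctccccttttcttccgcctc
Hspd1: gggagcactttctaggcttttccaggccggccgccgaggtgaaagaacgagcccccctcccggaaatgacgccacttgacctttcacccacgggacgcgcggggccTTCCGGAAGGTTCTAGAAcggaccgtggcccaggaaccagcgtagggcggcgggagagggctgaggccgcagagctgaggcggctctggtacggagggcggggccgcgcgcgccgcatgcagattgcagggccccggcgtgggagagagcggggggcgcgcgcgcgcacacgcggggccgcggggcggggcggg
Hsph1: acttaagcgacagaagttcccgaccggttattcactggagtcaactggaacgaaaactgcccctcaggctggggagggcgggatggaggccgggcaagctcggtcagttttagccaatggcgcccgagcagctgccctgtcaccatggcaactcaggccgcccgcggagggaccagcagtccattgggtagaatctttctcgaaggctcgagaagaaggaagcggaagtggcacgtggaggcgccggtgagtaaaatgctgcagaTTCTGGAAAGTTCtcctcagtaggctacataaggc
Dnajb6: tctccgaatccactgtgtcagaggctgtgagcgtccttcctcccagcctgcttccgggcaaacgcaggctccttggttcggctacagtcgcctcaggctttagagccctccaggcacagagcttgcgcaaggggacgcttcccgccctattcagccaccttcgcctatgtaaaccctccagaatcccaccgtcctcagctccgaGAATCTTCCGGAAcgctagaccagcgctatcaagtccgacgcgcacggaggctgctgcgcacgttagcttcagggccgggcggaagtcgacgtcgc
Hspa1b: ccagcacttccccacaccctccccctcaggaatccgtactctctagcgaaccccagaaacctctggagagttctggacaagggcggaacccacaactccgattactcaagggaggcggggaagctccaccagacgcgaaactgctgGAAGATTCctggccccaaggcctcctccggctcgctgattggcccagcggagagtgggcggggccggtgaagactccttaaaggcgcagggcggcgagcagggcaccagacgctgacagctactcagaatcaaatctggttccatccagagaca
Hspe1 and Hspd1 lie head to head, and their windows share 285 bases that are exact reverse complements. Both windows thus hold the same 4 GAA units, read from opposite strands. A match describes letters only, and no binding was measured.

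Library totals ran from 24.4 to 27.5 M counts in mimetic, 31 to 33 M in deficient, 28.4 to 35.8 M in WT and 33.3 to 39 M in vector. Levels are given as CPM, counts scaled to library size after TMM normalization. The kit reads 3' ends, so a level does not depend on transcript length. Zeb1 RNA stood at 228 ± 12.2 CPM in mimetic, 484 ± 13.1 in deficient, 244 ± 6.87 in WT and 31.3 ± 2.79 in vector (SD, n = 3 libraries per line, as for every mean below). The mitochondrially encoded share of counts was 0.482 to 0.504% in mimetic, 0.698 to 0.722% in deficient, 0.396 to 0.426% in WT and 0.814 to 0.998% in vector. The ribosomal protein share was 7.1 to 7.25% in mimetic, 6.28 to 6.62% in deficient, 7.64 to 7.71% in WT and 5.51 to 6.12% in vector. Of 8 epithelial markers, 6 were in the table and summed to 5595, 5564 and 5735 CPM in mimetic, 7688, 7767 and 7817 in deficient, 4295, 4166 and 4319.8 in WT and 9364, 9052 and 10474 in vector. Krt8, Krt18 and Krt19 made up most of each sum. Epcam and Esrp1 were not in the table, and Cldn7 averaged at most 0.389 CPM in any line. Fibroblast markers (3 of 8 in the table) summed to at most 3.47 CPM, endothelial markers (2 of 4) to at most 7.15, and leukocyte markers (2 of 7, Cd68 and Cd14) to between 21.5 and 65.5. The part of these shares and markers in the results was not tested. In bulk RNA, a change in the share of cells that express a gene and a change in RNA per cell cannot be told apart.

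Most members were abundant and moved little. Together they took 2.22 to 2.33% of counts in mimetic, 2.16 to 2.25% in deficient, 2.42 to 2.47% in WT and 2.18 to 2.27% in vector libraries, and the WT libraries stood above all others. Over the 71 tested members, the highest line mean exceeded the lowest by a median of 1.28-fold, against 1.39-fold over all 12027 tested genes. The ratio was over 1.5 for 10 members (14.1%), compared with 38.9% of all tested genes, and over 2 for Dnajc22, Dnajc12, Hspa1b and Dnajb13. The line with the highest mean was WT for 27 members (38%, against 28% of all genes) and vector for 20 (28.2%, against 34.3%). It was mimetic for 15 (21.1%, against 17.6%) and deficient for 9 (12.7%, against 20%). Of the 71, 10 had an adjusted p of 0.05 or more in all 6 comparisons by edgeR: Bag3, Dnaja3, Dnajb12, Dnajc4, Dnajc11, Dnajc16, Dnajc30, Hspa12b, Hspa1l and Hspbp1. At an unadjusted p under 0.05, 4 of these 10 would pass in at least 1 comparison, and DESeq2 or limma called 0. The share of all tested genes with no call was not counted, so the 10 have no background beside them.

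**Figure D1:**
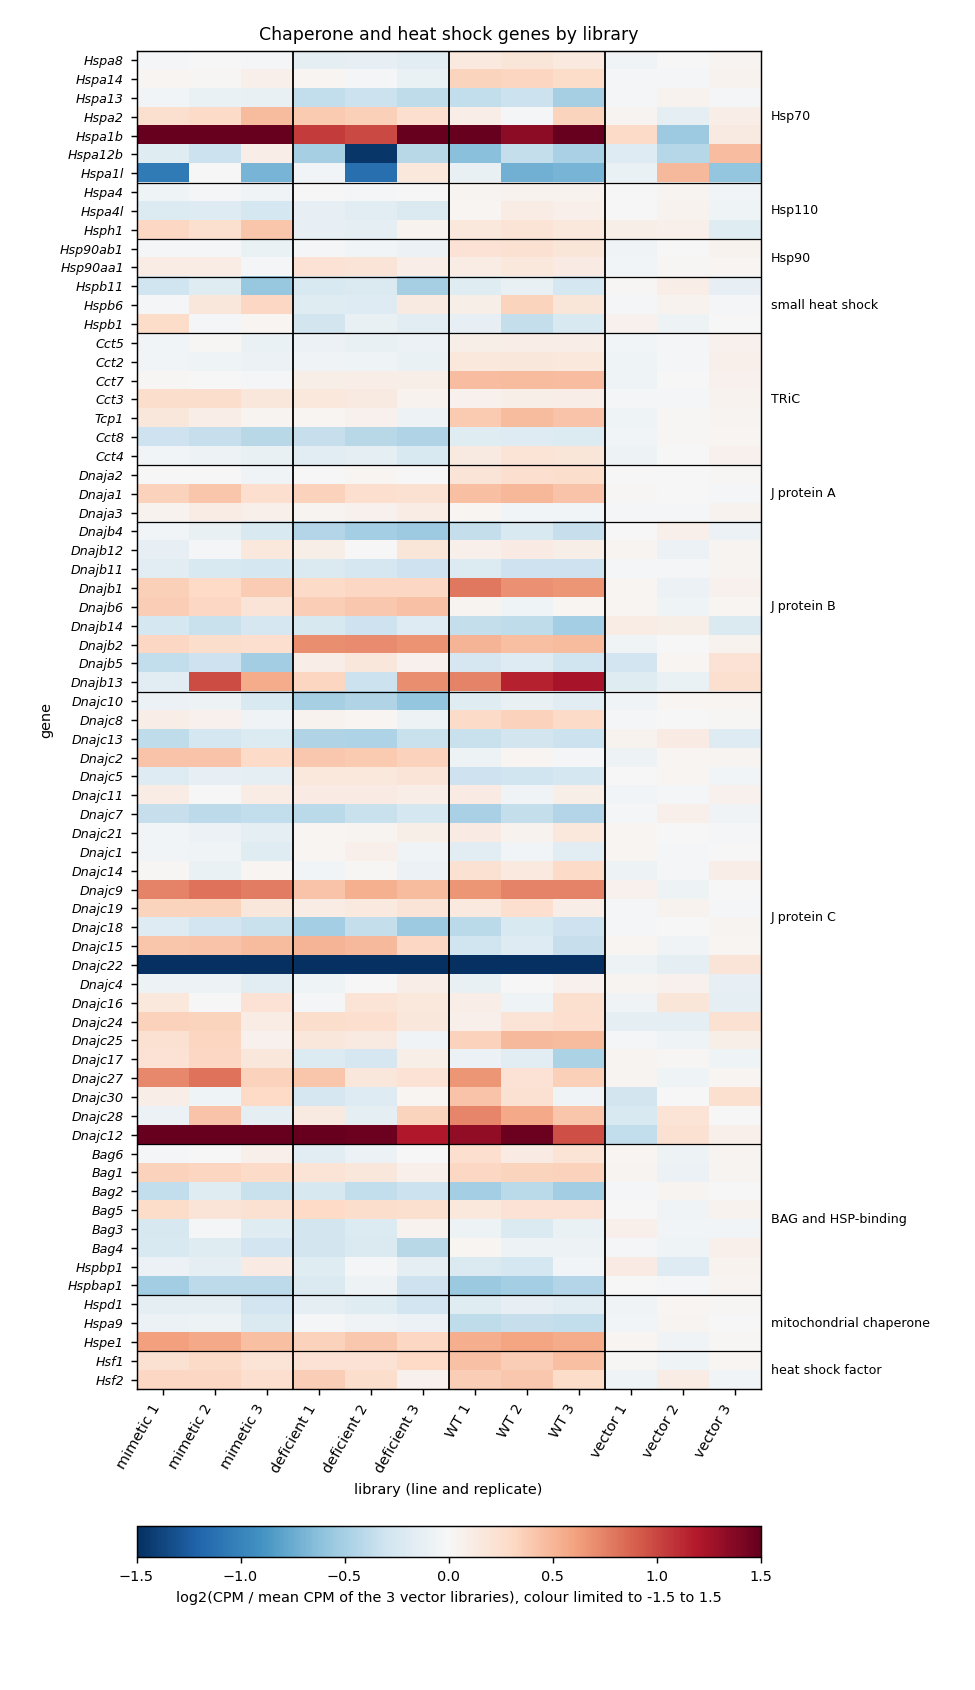
Heat map of the 71 tested members (rows, grouped by role) in 12 libraries (columns), coloured by log2 of CPM over the vector mean. The dark blue row is Dnajc22, low in all 9 Zeb1 libraries, and the dark red rows are Hspa1b and Dnajc12; most other rows are pale.

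Calls are a Benjamini-Hochberg adjusted p under 0.05 from edgeR's quasi-likelihood test over all 12 libraries, two-sided, and "rose" and "fell" are used of such calls. The comparisons with vector share the vector libraries, and those with WT share the WT libraries. In WT, 31 of 71 members rose relative to vector, where 31% of all tested genes were called higher, and 16 fell, where 33.6% were called lower. As shares, 43.7% of members rose and 22.5% fell. In mimetic, 20 members rose relative to vector (background 28.6%) and 17 fell (background 30.9%). Scaled to raw library totals alone, that split was 28 higher and 13 lower (39.4% and 18.3%), and over all genes 36% were higher and 25% lower. In deficient, 20 rose relative to vector (background 28.4%) and 18 fell (background 29.8%). In each mutant the share of members that rose, 28.2%, lay close to the background.

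Set against WT, the mutants were lower for more members than they were higher. In deficient, 28 of 71 members were called lower than in WT (39.4%, background 26.3%) and 11 higher (15.5%, background 27.5%), with a median log2 fold change of -0.10, while that of all genes was 0.01. In mimetic, 21 were called lower than in WT (background 21.8%) and 13 higher (background 23.1%), with medians of -0.01 for members and 0.01 for all genes. Scaled to raw totals alone, mimetic against WT gave 17 higher and 16 lower (23.9% and 22.5%), while over all genes 29.2% were higher and 16.5% lower. Between the mutants, 12 members were higher in mimetic than in deficient (background 12.6%) and 5 lower (background 14.9%). The count of 12 was 7 without mimetic replicate 2 (9.72%, background 9.39% in that refit).

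**Figure D2:**
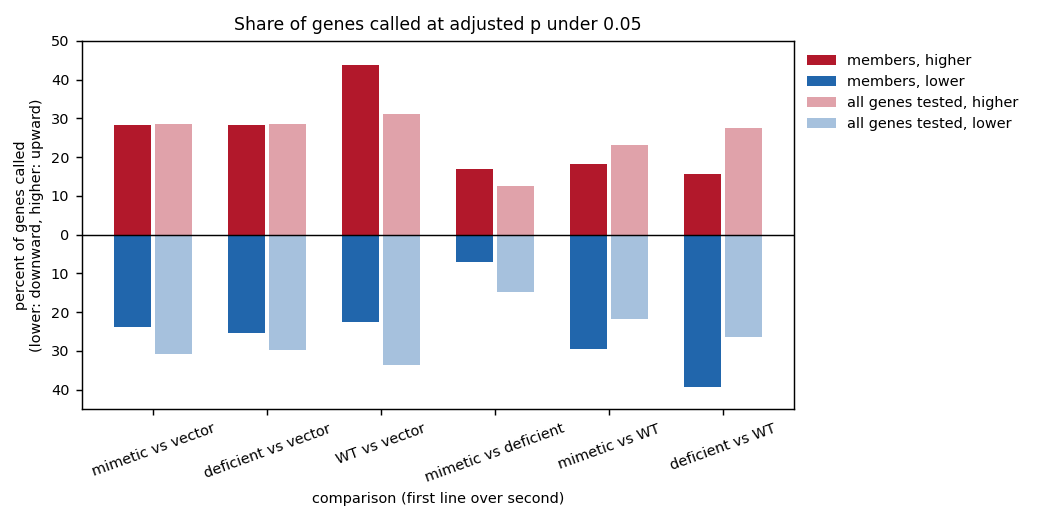
Bars give the percent of the 71 members (dark) and of all 12027 tested genes (pale) called higher (upward) or lower (downward) in each of 6 comparisons. Members exceed all genes most clearly upward in WT vs vector (43.7% and 31%) and downward in deficient vs WT (39.4% and 26.3%).

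Abundant genes are called at smaller differences, so the same shares were taken over genes with a mean of at least 20 CPM. Of 54 such members, 46.3% rose in WT relative to vector, where 34.5% of 7456 such genes were called higher. In deficient, 44.4% of them were lower than in WT, compared with 33.2% of such genes.

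Among the Hsp70 genes, the constitutive Hspa8 was the most abundant member after Hsp90ab1. Hspa8 had 2110, 2132 and 2091 CPM in mimetic, 1932, 1959 and 1899 in deficient, 2372, 2428 and 2358 in WT, against 2064, 2156 and 2197 in vector. The WT libraries were above all others and the deficient libraries below all others. In deficient the level was 1.24-fold lower than in WT, a change of -0.31 log2 units (SE 0.04, adjusted p = 8.49e-07). Against vector, Hspa8 rose in WT by 0.16 log2 units (SE 0.04, adjusted p = 0.000967) and changed by -0.15 log2 units (SE 0.04, adjusted p = 0.00197) in deficient. Of the 50-base words in the last 400 bases of its transcript, 87.5% also occur in transcripts of other genes, mostly processed copies, so its counts are uncertain.

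The stress-inducible Hspa1b (chromosome 17, 34956436 to 34959238, GRCm38) was low in every line and rose in all 3 Zeb1 lines. It had 6.06, 5.49 and 5.45 CPM in mimetic, 3.53, 3.38 and 5.01 in deficient, 4.89, 4.33 and 4.84 in WT, against 2.09, 1.17 and 1.87 in vector, from 38 to 71 counts per vector library and 109 to 156 in the others. None of the 9 Zeb1 libraries overlapped the vector libraries. Its changes relative to vector were 1.72 log2 units (SE 0.20, adjusted p = 2.8e-07) in mimetic, 1.21 log2 units (SE 0.20, adjusted p = 3.5e-05) in deficient and 1.44 log2 units (SE 0.20, adjusted p = 2.59e-06) in WT. Mimetic exceeded deficient by 0.51 log2 units (SE 0.18, adjusted p = 0.0418), a call that was lost on leaving out any single mutant library other than deficient replicate 3 (adjusted p = 0.07 to 0.157 in edgeR's test). No 50-base word of its 3' end occurred in another gene's transcript. The near-identical Hspa1a was not analysed here.

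Of the other Hsp70 genes, Hspa13, a microsomal family member, fell in deficient (-0.36 on the log2 scale) and WT (-0.39) relative to vector and stood at 77.7 ± 1.76 CPM in mimetic, against 82.3 ± 2.5 in vector (adjusted p = 0.182, edgeR). Hspa14 works with the J protein Dnajc2 on ribosomes, and relative to WT the pair differed in opposite directions in both mutants. Hspa14 had 75.2, 74.7 and 77.7 CPM in mimetic, 75.2, 72.9 and 69 in deficient, 92.7, 92.4 and 89.2 in WT, against 72.2, 72.4 and 76.7 in vector, highest in WT. Dnajc2 had 163, 164 and 149 CPM in mimetic, 161, 159 and 155 in deficient, 116, 124 and 119.5 in WT, against 115, 125 and 126 in vector, highest in both mutants. Relative to WT, Hspa14 was 1.2-fold lower in mimetic (adjusted p = 0.000147) and 1.26-fold lower in deficient (adjusted p = 7.15e-06). Over WT, Dnajc2 was 1.32-fold higher in mimetic (adjusted p = 1.2e-06) and 1.32-fold higher in deficient (adjusted p = 7.12e-07). Against vector, Dnajc2 rose in the mutants and Hspa14 in WT, and the other 3 differences lay between -0.03 and 0.04 on the log2 scale, with no call. The identifier that the table calls Hspa14 has another name in GENCODE M21, where it overlaps Hspa14 on the same strand, so that count is uncertain. Hspa2 averaged 18.1 ± 1.55 CPM in mimetic, 18 ± 0.917 in deficient, 15.7 ± 2.01 in WT and 14.3 ± 1.23 in vector, while Hspa1l and Hspa12b stayed under 2 CPM in every line mean.

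The Hsp110 genes encode exchange factors that release ADP from Hsp70. Hsph1, whose window carries a 3-unit element, had 110.5, 105 and 119 CPM in mimetic, 82, 80.3 and 92.2 in deficient, 99.7, 103 and 99.3 in WT, against 94.9, 93.8 and 78.6 in vector. Mimetic libraries stood above all others, and deficient and vector overlapped. Mimetic exceeded deficient by 0.39 log2 units (SE 0.07, adjusted p = 0.000161) and vector by 0.32 log2 units (SE 0.07, adjusted p = 0.000319). The smaller rise in WT over vector, 0.18 log2 units (SE 0.07, adjusted p = 0.0268), was lost without WT replicate 2 (adjusted p = 0.0748) or vector replicate 3 (adjusted p = 0.158). Hspa4l was 1.23-fold lower in mimetic and 1.18-fold lower in deficient than in WT. It also fell relative to vector in mimetic (-0.22) and deficient (-0.17) on the log2 scale. WT, at 282 CPM, was not called against vector, at 268 CPM. Hspa4 was nearly level, at 562 ± 7.36 CPM in mimetic, 579 ± 3.97 in deficient, 601 ± 4.6 in WT and 581 ± 15.1 in vector. Its one call, -0.10 on the log2 scale in mimetic against WT (adjusted p = 0.0349), was lost without any library of mimetic or WT other than mimetic replicate 2 (adjusted p = 0.053 to 0.0963). It was also lost when scaled to raw totals alone (adjusted p = 0.3825) and with the filter of 5 CPM in 3 libraries (adjusted p = 0.0649).

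Hsp90ab1, the constitutive Hsp90, was the most abundant member. It had 6392, 6412 and 6114 CPM in mimetic, 6468, 6356 and 6171 in deficient, 7617, 7689 and 7429 in WT, against 6305, 6528 and 6797 in vector. The 3 WT libraries lay above the other 9, which overlapped. Relative to WT it changed by -0.27 log2 units (SE 0.04, adjusted p = 1.97e-05) in mimetic and -0.26 log2 units (SE 0.04, adjusted p = 1.75e-05) in deficient, 1.2-fold lower in each. Each mutant differed from vector by -0.05 on the log2 scale, with 95% intervals of -0.13 to 0.03 in mimetic and -0.13 to 0.03 in deficient. The inducible Hsp90aa1 followed another order, with 1236 ± 65.7 CPM in mimetic, 1327 ± 57.7 in deficient, 1292 ± 25 in WT and 1178 ± 29.9 in vector. It rose relative to vector in deficient by 0.17 log2 units (SE 0.04, adjusted p = 0.00254). Its rise in WT over vector, 0.13 log2 units (SE 0.04, adjusted p = 0.0133), was lost without WT replicate 2 or vector replicate 1 (adjusted p = 0.058 and 0.0624).

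Hsp90 works with cochaperones that load clients or set its ATPase rate. Of 17 such genes, 11 rose and 2 fell in WT relative to vector (median 0.18 on the log2 scale, all genes -0.01), with 4 and 2 in mimetic and 6 and 3 in deficient. As shares these were 64.7% higher and 11.8% lower in WT (all genes 31% and 33.6%), 23.5% and 11.8% in mimetic (all genes 28.6% and 30.9%), and 35.3% and 17.6% in deficient (all genes 28.4% and 29.8%). Relative to WT, 8 were lower and 1 higher in mimetic, and 8 lower and 1 higher in deficient. The share lower than in WT was 47.1% in each mutant, against 21.8% of all genes in mimetic and 26.3% in deficient. Stip1, which bridges Hsp70 and Hsp90, had 621, 643 and 630.3 CPM in mimetic, 629, 636 and 605 in deficient, 754, 775 and 756 in WT, against 615, 618 and 634 in vector. Its WT libraries lay above all others. It was 1.21-fold lower in mimetic (adjusted p = 5.54e-06) and 1.22-fold lower in deficient (adjusted p = 1.45e-06) than in WT. Ahsa1, which activates the Hsp90 ATPase, rose in all 3 Zeb1 lines relative to vector, by 0.56 in mimetic, 0.43 in deficient and 0.59 in WT on the log2 scale. Sugt1 went the other way in WT, at -0.46 on the log2 scale against vector. It exceeded WT by 0.41 in mimetic and 0.55 in deficient.

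The TRiC chaperonin has 8 kinds of subunit, and 7 genes for them were tested: Tcp1, Cct2, Cct3, Cct4, Cct5, Cct7 and Cct8. Cct6b, a testis-type subunit, had 3 to 12 counts per library and failed the filter, and Cct6a was not analysed here. In both mutants 6 of the 7 were lower than in WT (background 21.8% in mimetic and 26.3% in deficient), the exception being Cct3. Relative to vector, 5 rose in WT (71.4%, background 31%) and Cct8 fell (14.3%, background 33.6%). Among all genes with a mean of at least 20 CPM, 28.8% were lower than in WT in mimetic and 33.2% in deficient. Of the same genes, 34.5% rose and 36.5% fell in WT relative to vector. The level summed over all 8 genes in the table was 5509, 5470.2 and 5225 CPM in mimetic and 5310, 5267 and 5112 in deficient, against 6152, 6245 and 6204 in WT, and 5305, 5452 and 5716 in vector. The WT libraries again stood above the other 9.

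Cct7 had 692, 687 and 677 CPM in mimetic, 727, 730.4 and 728 in deficient, 945, 948 and 944 in WT, against 653, 686 and 713 in vector. The WT libraries lay above all others. Cct7 was 1.38-fold lower in mimetic (adjusted p = 4.96e-09) and 1.3-fold lower in deficient (adjusted p = 5.97e-08) than in WT. Tcp1 (chromosome 17, 12915701 to 12925067) had 721, 688 and 660.3 CPM in mimetic, 659, 673 and 611 in deficient, 848, 891 and 869 in WT, against 618, 649 and 664 in vector. The WT libraries did not overlap any other, and Tcp1 was 1.26-fold lower in mimetic and 1.34-fold lower in deficient than in WT. Its 3' end shares 33% of 50-base words with Acat2 and Acat3, of which Acat3 runs antisense to it, and without a stated counting strand the reads of overlapping genes cannot be told apart.

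Cct4 was -0.25 in mimetic and -0.35 in deficient relative to WT on the log2 scale, Cct2 -0.22 in mimetic and -0.23 in deficient, and Cct5 -0.14 in mimetic and -0.20 in deficient. Some smaller calls of TRiC genes depended on the setting. The difference of deficient from vector was lost under 14 of 20 alternatives for Cct7 (0.09, adjusted p = 0.0466) and under 10 for Cct5 (-0.10, adjusted p = 0.0426). The rise of Cct5 in WT over vector (0.10, adjusted p = 0.0403) was lost under 7, among them leaving out any WT library (adjusted p = 0.0661 to 0.0888) and vector replicate 1 or 2 (adjusted p = 0.145 and 0.119). Its call in mimetic against WT was lost without mimetic replicate 3 (adjusted p = 0.0555) and when scaled to raw totals alone (adjusted p = 0.101). Cct8 had its highest level in vector, with 579, 563 and 538 CPM in mimetic, 563, 538 and 525 in deficient, 631, 628 and 618 in WT, against 697, 722 and 728 in vector. It fell by 0.35 in mimetic, fell by 0.40 in deficient and fell by 0.19 in WT on the log2 scale, each against vector, with adjusted p between 3.86e-08 (deficient) and 0.000266 (WT). Its 3' end overlaps the antisense gene Usp16, which holds 40.7% of its 50-base words. Cct3 was highest in mimetic, 811 ± 32 CPM, against 749 ± 31.5 in deficient, 731 ± 6.38 in WT and 691 ± 20.3 in vector. The subunit RNAs did not keep a fixed ratio across the lines.

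**Figure D3:**
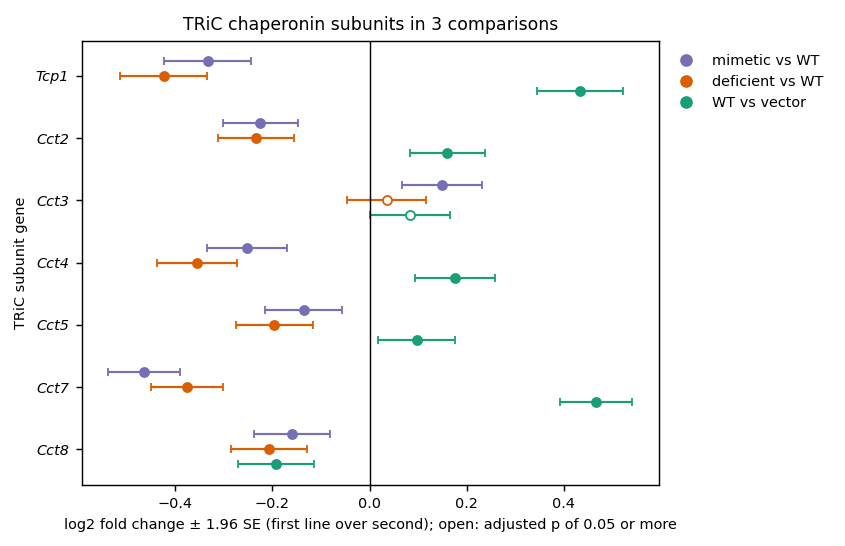
Log2 fold change (x axis, points with 95% intervals) of 7 TRiC subunit genes in mimetic vs WT, deficient vs WT and WT vs vector; open points were not called. All subunits but Cct3 lie left of 0 in both mutants against WT, and Cct8 also lies left of 0 in WT vs vector.

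Prefoldin and phosducin-like proteins hand substrates to TRiC. Of 9 such genes, 3 were lower and 2 higher in mimetic than in WT, and 3 lower and 1 higher in deficient. In WT relative to vector, 3 rose and 3 fell. The shares lower and higher than in WT were 33.3% and 22.2% in mimetic (all genes 21.8% and 23.1%), and 33.3% and 11.1% in deficient (all genes 26.3% and 27.5%). In WT against vector, 33.3% rose and 33.3% fell, close to the 31% and 33.6% of all genes. The prefoldin subunit Vbp1 was 1.26-fold lower in mimetic (adjusted p = 2.79e-05) and 1.26-fold lower in deficient (adjusted p = 1.66e-05) than in WT.

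J proteins were the most numerous members, with 3 of class A, 9 of class B and 24 of class C. Dnajb1, the heat-inducible partner of Hsp70, had 57.3, 54.9 and 57.9 CPM in mimetic, 54.3, 55.2 and 55.5 in deficient, 77.2, 71.8 and 70.6 in WT, against 45.4, 42 and 46.5 in vector. All 3 Zeb1 lines lay above vector without overlap, and WT above both mutants. Dnajb1 rose over vector by 0.35 log2 units (SE 0.06, adjusted p = 2.25e-05) in mimetic, 0.30 log2 units (SE 0.06, adjusted p = 0.000104) in deficient and 0.71 log2 units (SE 0.06, adjusted p = 5.82e-10) in WT. Relative to WT, it was 1.29-fold lower in mimetic (adjusted p = 1.85e-05) and 1.33-fold lower in deficient (adjusted p = 2.76e-06).

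Dnaja1, another Hsp70 partner, rose in the same 3 comparisons with vector, by 0.34 in mimetic, 0.27 in deficient and 0.46 in WT on the log2 scale. The antisense gene Smu1 covers every 50-base word of its 3' end, so its value is uncertain. Dnaja2 was highest in WT, 359.9 ± 9.06 CPM, with 302 ± 6.97 in mimetic, 308 ± 3.92 in deficient and 305 ± 2.78 in vector. Dnaja3, a mitochondrial J protein, averaged 121 ± 2.29 CPM in mimetic, 121 ± 3.14 in deficient, 114 ± 3.28 in WT and 115 ± 3.82 in vector and was called in no comparison by edgeR, DESeq2 or limma, but in 4 when scaled to raw totals alone.

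Class B members split between the lines. Dnajb2, a J protein that binds ubiquitin, had 45.7, 44 and 43.6 CPM in mimetic, 59.8, 60 and 58.8 in deficient, 52.3, 50.3 and 50.9 in WT, against 35.6, 36.5 and 38.2 in vector. No 2 lines overlapped, and deficient was highest. Deficient exceeded vector by 0.69 log2 units (SE 0.05, adjusted p = 8.34e-10), and mimetic was 1.34-fold lower than deficient (adjusted p = 4.93e-06). Dnajb6, an aggregation suppressor with a 3-unit element in its window, was higher in both mutants than in WT, with 59.8, 57.5 and 52.8 CPM in mimetic, 59.7, 61.2 and 62.8 in deficient, 47.5, 44.2 and 47.1 in WT, against 47.1, 44.4 and 47.4 in vector. The mutant libraries did not overlap those of WT or vector, and WT and vector overlapped. Dnajb6 exceeded WT by 0.29 log2 units (SE 0.06, adjusted p = 0.000403) in mimetic and 0.40 log2 units (SE 0.06, adjusted p = 7.36e-06) in deficient, while WT differed from vector by -0.00 (95% interval -0.12 to 0.11) on the log2 scale. Dnajb4 was lowest in deficient, with 106, 101 and 93.1 CPM in mimetic, 80.1, 76.3 and 74.9 in deficient, 85.2, 93.4 and 86 in WT, against 109.5, 115 and 103 in vector, and mimetic exceeded deficient by 0.38 log2 units (SE 0.06, adjusted p = 4.64e-05). Dnajb5 was 1.43-fold lower in mimetic than in deficient (adjusted p = 0.00404).

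The largest change of any tested member belonged to Dnajc22 (chromosome 15, 99093170 to 99104737, plus strand), whose fly counterpart wurst acts in endocytosis. It had 13.4, 15.7 and 16.9 CPM in mimetic, 20, 21 and 20.1 in deficient, 7.7, 9.76 and 9.86 in WT, against 79, 75.6 and 95.5 in vector. No library of one line overlapped those of another, and every Zeb1 library lay far below vector. Its changes from vector were -2.44 log2 units (SE 0.10, adjusted p = 2.77e-14) in mimetic, -2.03 log2 units (SE 0.10, adjusted p = 3.59e-13) in deficient and -3.19 log2 units (SE 0.10, adjusted p = 4.71e-16) in WT. On a linear scale it was 5.44-fold lower in mimetic, 4.09-fold lower in deficient and 9.14-fold lower in WT. The mutants exceeded WT by 0.75 log2 units (SE 0.11, adjusted p = 1.82e-05) in mimetic and 1.16 log2 units (SE 0.11, adjusted p = 1.95e-08) in deficient. Mimetic was 1.33-fold lower than deficient (adjusted p = 0.0054). No annotated gene overlaps Dnajc22, and no 50-base word of its 3' end is shared.

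Other class C members rose in every Zeb1 line. Dnajc9, a J protein that also chaperones histones, had 80.9, 84.9 and 82 CPM in mimetic, 65, 69.8 and 66.8 in deficient, 76.5, 80.6 and 80.8 in WT, against 50.5, 45.6 and 48.3 in vector. All 9 Zeb1 libraries exceeded vector, by 0.78 log2 units (SE 0.05, adjusted p = 9.29e-11) in mimetic, 0.48 log2 units (SE 0.05, adjusted p = 1.49e-07) in deficient and 0.72 log2 units (SE 0.05, adjusted p = 2.19e-10) in WT. Dnajc12, a helper of aromatic amino acid hydroxylases, was low but rose 3.61-fold in mimetic, 2.72-fold in deficient and 2.42-fold in WT over vector. Its levels were 4.27, 3.77 and 4.25 CPM in mimetic, 3.5, 3.14 and 2.6 in deficient, 2.84, 3.14 and 2.21 in WT, against 0.877, 1.32 and 1.19 in vector. The Zeb1 libraries did not overlap vector, at 29 to 45 counts per vector library.

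Dnajc15 and Dnajc5 were higher in both mutants than in WT. Dnajc15, a J protein of the mitochondrial inner membrane, had 39.2, 39.3 and 40.7 CPM in mimetic, 41.6, 41.1 and 36.3 in deficient, 23.9, 25.7 and 23.1 in WT, against 29.8, 28.3 and 29.8 in vector. Both mutants lay above vector and WT below it, without overlap. It exceeded WT by 0.71 log2 units (SE 0.07, adjusted p = 6.19e-08) in mimetic and 0.71 log2 units (SE 0.07, adjusted p = 3.26e-08) in deficient, and the mutants differed from each other by 0.00 (95% interval -0.13 to 0.13) on the log2 scale. Dnajc5, the cysteine string protein of secretory vesicles, had 126, 132 and 131 CPM in mimetic, 159, 159 and 164 in deficient, 115, 116 and 119.7 in WT, against 144, 147 and 139 in vector, an order in which deficient was highest and WT lowest. Deficient exceeded WT by 0.46 log2 units (SE 0.04, adjusted p = 9.8e-09), and mimetic by 0.14 log2 units (SE 0.04, adjusted p = 0.00782), which was lost without WT replicate 1 (adjusted p = 0.0501).

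Several J proteins and the Hsp70 member Hspa13 of the endoplasmic reticulum fell in Zeb1 lines. Of 7 assigned to that compartment, 4 fell in mimetic, 5 in deficient and 5 in WT relative to vector. None of these 7 rose in any of the 3 lines under any of the 21 settings tried. The shares that fell were 57.1% in mimetic, 71.4% in deficient and 71.4% in WT, where 30.9% of all genes were called lower in mimetic, 29.8% in deficient and 33.6% in WT. Their median log2 fold change was -0.13 in mimetic, -0.26 in deficient and -0.28 in WT, beside -0.01 to 0.00 over all tested genes. Dnajc10, a reductase of misfolded proteins there, had 271, 273 and 247 CPM in mimetic, 204, 211 and 193 in deficient, 254, 266 and 259 in WT, against 277, 294 and 294 in vector. Deficient lay below all other libraries and vector above them, and deficient was 1.42-fold lower than vector (adjusted p = 1.13e-08). The fall in mimetic (-0.13 log2 units, adjusted p = 0.0215) was lost without mimetic replicate 3 (adjusted p = 0.147) or vector replicate 2 (adjusted p = 0.0609). It was also lost when scaled to raw totals alone (adjusted p = 0.308) or fitted with these 2 lines alone (adjusted p = 0.053). The log2 fold change of Dnajb11, a partner of the Hsp70 of that compartment, was -0.21 in mimetic, -0.26 in deficient and -0.28 in WT against vector. Dnajb14 and Dnajc18 were called lower in all 3 lines as well, with log2 fold changes of -0.41 to -0.25 for Dnajb14 and -0.47 to -0.27 for Dnajc18, where the Dnajb14 call in deficient was lost without vector replicate 1 (adjusted p = 0.054). Dnajb12 and Dnajc1 differed from vector by -0.12 to 0.10 on the log2 scale, with no call. The 7 may not be all members of this compartment. Dnajc14 and Dnajc16, for example, were counted with the cytosolic and other members. Dnajc14 averaged 71.7 CPM in mimetic, 70.9 in deficient, 84.6 in WT and 72.6 in vector. Of the 4 stress genes of this compartment that the symbol rule leaves out, 2 rose in each Zeb1 line (Hspa5 and Dnajb9) and Dnajc3 fell, with medians of 0.32 in mimetic, 0.29 in deficient and 0.10 in WT on the log2 scale. Hspa5, the Hsp70 that Dnajb11 serves, averaged 1032 ± 37.2 CPM in mimetic, 1035 ± 50.7 in deficient, 794 ± 10.8 in WT and 689 ± 12 in vector, and rose by 0.58 in mimetic, 0.59 in deficient and 0.20 in WT on the log2 scale over vector. Outside that compartment, Dnajc7, which binds both Hsp70 and Hsp90, changed by -0.37 in mimetic, -0.34 in deficient and -0.43 in WT on the log2 scale against vector. The endosomal Dnajc13 changed by -0.28 in mimetic, -0.42 in deficient and -0.31 in WT, and all 6 were called.

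The remaining class C members gave smaller or less certain differences. Dnajc8 and Dnajc14 were lower in both mutants than in WT, with Dnajc8 at -0.27 in mimetic and -0.30 in deficient relative to WT, and Dnajc14 -0.24 in mimetic and -0.25 in deficient, on the log2 scale. Dnajc28 was likewise lower than WT in both mutants, at under 5 CPM, but that call was lost without WT replicate 1 in either mutant (adjusted p = 0.122 in mimetic and 0.122 in deficient). Dnajc27, a small GTPase with a J domain, averaged 9.16 ± 1.49 CPM in mimetic, 7.09 ± 0.637 in deficient, 7.87 ± 1.25 in WT and 5.87 ± 0.241 in vector and rose by 0.64 in mimetic over vector on the log2 scale. Dnajb13, of the sperm flagellum, stayed under 2 CPM in every line mean and overlaps Ucp2 at its 3' end. Dnajc17, Dnajc19, Dnajc21, Dnajc24, Dnajc25, Hspb6 and Hspbap1 lay between -0.50 (Hspbap1, WT against vector) and 0.47 (Dnajc17, mimetic against WT) on the log2 scale in all 6 comparisons. Each was called in at least 1. Hspbap1 averaged 10.7 CPM in mimetic, 12.6 in deficient, 10.1 in WT and 14.4 in vector. It fell relative to vector in mimetic (-0.43) and WT, ranking after Dnajc22 among members of at least 5 CPM. Mimetic was called above deficient and WT for Dnajc17 (11.6 CPM, against 9.12 and 8.41). For Dnajc21, mimetic (75 CPM) was called below deficient (82.7). The calls between the mutants were lost under 4 alternatives for Dnajc17 and 6 for Dnajc21.

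**Figure D4:**
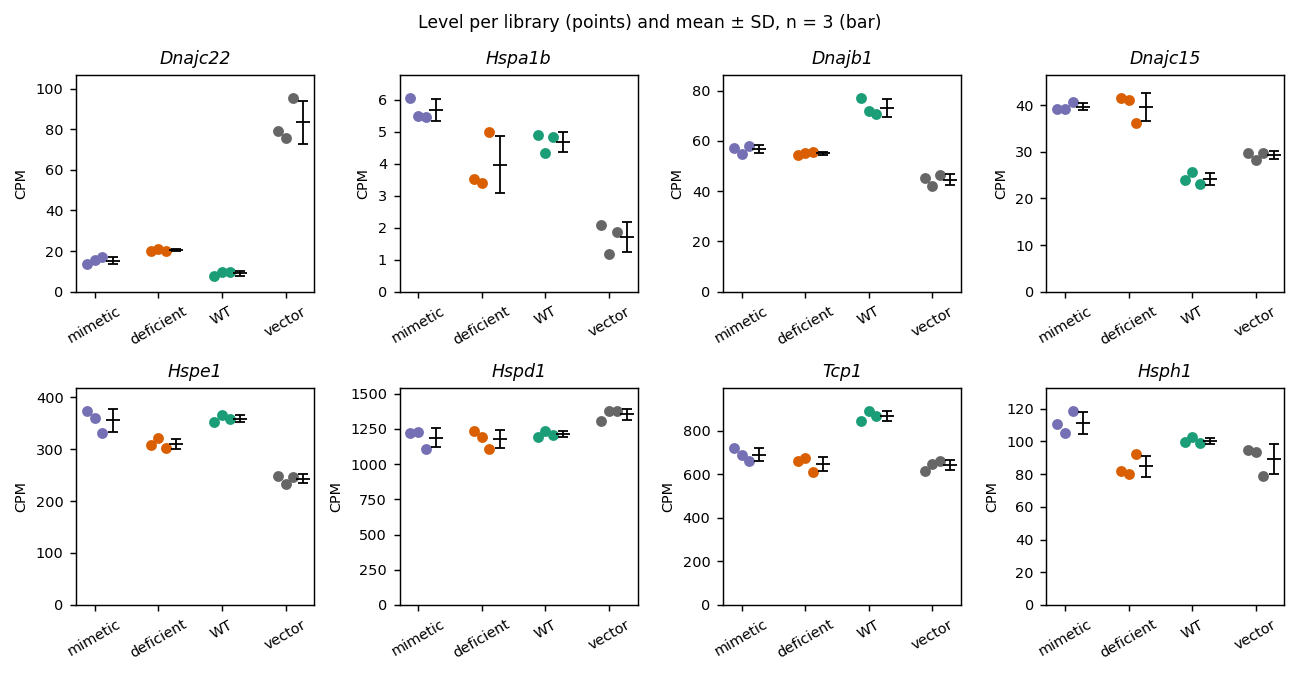
CPM per library (points, 3 per line) with mean and SD bars for 8 members in mimetic, deficient, WT and vector; each panel has its own axis from 0. Dnajc22 is far lower and Hspa1b higher in all Zeb1 libraries, Tcp1 and Dnajb1 peak in WT, and Hspe1 and Hspd1 move in opposite directions against vector.

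The mitochondrial chaperonin is built from Hspd1 (Hsp60) and its lid Hspe1 (Hsp10), which share the promoter region printed above. Their RNAs moved apart. Hspe1 (chromosome 1, 55088132 to 55091307) had 373, 361 and 332 CPM in mimetic, 308, 321 and 302 in deficient, 353, 366 and 357 in WT, against 249, 233 and 246 in vector. Hspd1 (chromosome 1, 55077835 to 55088243) had 1225, 1226 and 1108 CPM in mimetic, 1236, 1192 and 1108 in deficient, 1195, 1238 and 1209 in WT, against 1308, 1377 and 1374 in vector. In both genes the Zeb1 libraries did not overlap vector, above it for Hspe1 and below it for Hspd1. Hspe1 rose by 0.55 log2 units (SE 0.05, adjusted p = 2.1e-09) in mimetic, 0.35 log2 units (SE 0.05, adjusted p = 1.25e-06) in deficient and 0.56 log2 units (SE 0.05, adjusted p = 1.02e-09) in WT. Hspd1 changed by -0.19 log2 units (SE 0.05, adjusted p = 0.00168) in mimetic, -0.20 log2 units (SE 0.05, adjusted p = 0.00114) in deficient and -0.16 log2 units (SE 0.05, adjusted p = 0.00645) in WT. Of the 50-base words of the Hspe1 3' end, 59.8% also occur in transcripts of processed copies, while those of Hspd1 were all its own, so the Hspe1 level is the less certain.

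Hspa9, the Hsp70 of mitochondria, was lowest in WT, with 1205, 1212 and 1099 CPM in mimetic, 1268, 1235 and 1201 in deficient, 981, 1011 and 995 in WT, against 1242, 1314 and 1287 in vector. WT lay below all other libraries and was exceeded by 0.24 log2 units (SE 0.04, adjusted p = 0.000151) in mimetic and 0.31 log2 units (SE 0.04, adjusted p = 3.98e-06) in deficient. Its smaller fall in mimetic relative to vector (-0.13 log2 units, adjusted p = 0.0135) was lost without mimetic replicate 3 (adjusted p = 0.107) or vector replicate 2 (adjusted p = 0.0502). That call was also lost when scaled to raw totals alone (adjusted p = 0.264) or fitted with these 2 lines alone (adjusted p = 0.0571). The 2 exchange factors of Hspa9 moved in opposite directions. Relative to vector, Grpel1 was 1.55-fold higher in mimetic, 1.49-fold in deficient and 1.39-fold in WT. Grpel2 was 1.73-fold lower in mimetic, 1.44-fold in deficient and 2.09-fold in WT. Of the 9 mitochondrial chaperones and proteases listed beside the members, 3 rose and 4 fell in mimetic, 4 and 4 in deficient, and 3 and 4 in WT, against vector. As shares these were 33.3% and 44.4% in mimetic, 44.4% and 44.4% in deficient, and 33.3% and 44.4% in WT, while of all genes 28.6% were called higher and 30.9% lower in mimetic, 28.4% and 29.8% in deficient, and 31% and 33.6% in WT.

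Several BAG proteins exchange nucleotide on Hsp70 and link it to degradation or signalling. Bag1 had 216, 213 and 207 CPM in mimetic, 195, 191 and 179 in deficient, 210.5, 214 and 216 in WT, against 174, 159 and 175 in vector. It rose by 0.32 log2 units (SE 0.05, adjusted p = 3.74e-06) in mimetic and 0.33 log2 units (SE 0.04, adjusted p = 2.08e-06) in WT over vector, and the smaller rise in deficient (0.15 log2 units, adjusted p = 0.00679) was lost without vector replicate 2 (adjusted p = 0.0536). Bag2, an inhibitor of the ubiquitin ligase CHIP, had 68.4, 77.8 and 70.1 CPM in mimetic, 74.5, 68.4 and 70.5 in deficient, 62, 66.7 and 61.5 in WT, against 86.2, 90.8 and 87.8 in vector. It was highest in vector without overlap and changed by -0.29 in mimetic, -0.31 in deficient and -0.48 in WT on the log2 scale. On the log2 scale Bag5 rose by 0.23 in mimetic, 0.27 in deficient and 0.20 in WT over vector. Bag4 was -0.23 in mimetic and -0.30 in deficient on the log2 scale against vector, and Bag6 was lower than in WT in mimetic (-0.18) and in deficient (-0.28). The heat-inducible Bag3, which routes proteins to autophagy, was called in no comparison. It averaged 42.6 ± 3.34 CPM in mimetic, 43 ± 5.26 in deficient, 42.9 ± 2.17 in WT and 47.1 ± 2.16 in vector, and the interval of its change in WT against vector was -0.29 to 0.02 on the log2 scale. Without deficient replicate 3, Bag3 was called lower in deficient than in vector (adjusted p = 0.00905).

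The heat shock factors rose in all 3 Zeb1 lines. Hsf1 (chromosome 15, 76477422 to 76501913) had 84.7, 88 and 83.4 CPM in mimetic, 84.3, 84.2 and 89 in deficient, 97.6, 93 and 98.7 in WT, against 73.4, 69.3 and 74 in vector. Zeb1 lines and vector did not overlap, and the rises were 0.24 log2 units (SE 0.05, adjusted p = 0.000229) in mimetic, 0.25 log2 units (SE 0.05, adjusted p = 0.000163) in deficient and 0.42 log2 units (SE 0.05, adjusted p = 2.07e-07) in WT. Hsf2, a related factor, rose by 0.29 in mimetic, 0.24 in deficient and 0.35 in WT on the log2 scale, and its call in deficient was lost without deficient replicate 1 or vector replicate 1 (adjusted p = 0.107 and 0.0644). Hsf1 activity is set mainly on the protein, which was not measured.

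Genes that heat is known to induce did not move as one. Against vector, the inducible members Hspa1b, Dnajb1 and Dnaja1 rose in all 3 Zeb1 lines, Hsph1 in mimetic and WT, Hsp90aa1 in deficient and WT, and Bag3 in none. The small heat shock protein Hspb1, an actin-binding chaperone, averaged 11.2 ± 1.27 CPM in mimetic, 9.25 ± 0.563 in deficient, 8.9 ± 0.73 in WT and 10.5 ± 0.494 in vector and was called in 1 of 6 comparisons, mimetic over WT, at 0.34 log2 units (SE 0.11, adjusted p = 0.0157), which was lost without mimetic replicate 1 (adjusted p = 0.106) or WT replicate 2 (adjusted p = 0.0899). Hspb11, a cilium transport protein despite its symbol, fell by 0.34 in mimetic and fell by 0.31 in deficient on the log2 scale relative to vector.

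Of 13 further heat shock factor regulators and heat-inducible genes, 6 rose and 2 fell in mimetic, 7 and 2 in deficient, and 8 and 1 in WT, against vector. The shares that rose were 46.2% in mimetic (all genes 28.6%), 53.8% in deficient (all genes 28.4%) and 61.5% in WT (all genes 31%). The shares that fell were 15.4% in mimetic (all genes 30.9%), 15.4% in deficient (all genes 29.8%) and 7.69% in WT (all genes 33.6%). This list shares 4 genes with the Hsp90 cochaperones. Cryab, the small heat shock protein alpha-B-crystallin, which the symbol rule does not take, had 3.91, 4.63 and 4.29 CPM in mimetic, 4.25, 3.66 and 3.59 in deficient, 3.78, 2.55 and 2.31 in WT, against 0.575, 0.43 and 0.475 in vector. Its Zeb1 libraries were all above vector, by 3.11 log2 units (SE 0.24, adjusted p = 8.8e-10) in mimetic, 2.95 log2 units (SE 0.24, adjusted p = 2.18e-09) in deficient and 2.53 log2 units (SE 0.25, adjusted p = 2.24e-08) in WT. Serpinh1, the collagen chaperone Hsp47, was 1.73-fold higher in mimetic, 1.53-fold in deficient and 1.71-fold in WT than in vector. Dedd2, of the same list, went the other way, by -0.85 in mimetic, -0.57 in deficient and -1.29 in WT on the log2 scale. St13 averaged 557 CPM in mimetic, 527 in deficient, 646 in WT and 648 in vector.

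Immediate early genes, which respond to handling and growth signals, were read beside these. Of 25 tested, 10 rose and 2 fell in mimetic, 17 and 3 in deficient, and 11 and 9 in WT, against vector. Higher and lower calls made up 40% and 8% in mimetic, 68% and 12% in deficient, and 44% and 36% in WT, while over all genes they made up 28.6% and 30.9% in mimetic, 28.4% and 29.8% in deficient, and 31% and 33.6% in WT. Their summed level was 1608, 1649.8 and 1688 CPM in mimetic, 1998, 1994 and 2107 in deficient, 1479, 1423 and 1447 in WT and 1495, 1425 and 1539 in vector. The deficient libraries held the highest sums. By line mean, deficient was highest for 9 of the 71 members (12.7%, against 20% of all genes) and lowest for 18. Vector was lowest for 26 members, WT for 17 and mimetic for 10. The lowest line was not counted over all genes, so these counts of lowest lines have no background. The part of the immediate early genes in the chaperone levels was not tested.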

How the data were processed

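RNA from 12 libraries was prepared with a 3' tag kit, and the authors deposited 1 table of whole-number counts per gene; the smallest count is 1, and 0 of its columns belong to no sample here. The submitters' processing notes name STAR and the build mm10. Their versions, the counter, its strand setting and the gene models were not given in the sources used here. Groups follow the sample titles. One edgeR 4.0.16 quasi-likelihood fit (R 4.3.3) over all 12 libraries, with TMM scaling and filterByExpr (181 genes removed, 12027 tested), gave all 6 comparisons, two-sided, with Benjamini-Hochberg adjustment over all tested genes. The 95% intervals are the estimate ± 1.96 SE. No label says that libraries came from separate cultures, so each p reflects variation among libraries of 1 line, which may be technical. Replicates of a line differed beyond counting noise (mean chi-square per gene of 2.96 to 23.6 between pairs of replicates). The fit was also run on simulated data for the contrast of mimetic with deficient (11969 genes). It called 95.5% of genes changed 2-fold, 79.5% at 1.5-fold, 56.7% at 1.25-fold and 0.119% of unchanged genes. In the real contrast, 17 called members differed by less than 1.5-fold and 0 by 2-fold or more. Over all 12027 tested genes, 1510 were called higher and 1789 lower. Of these, 2586 differed by less than 1.5-fold and 316 by 2-fold or more.

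Alternatives were DESeq2 1.42.0, limma 3.58.1 (voom), RLE scaling, raw library totals, no filter, at least 5 CPM in 3 libraries, fitting each pair of lines alone, a replicate block, and each library left out. Members and lists were chosen with earlier results of these data known. Members described at length are 19 chosen by name in the table and, in each comparison and direction, up to 5 called members with the largest fold change and at least 5 CPM. Other members are named to account for the rest. Stip1, Ahsa1, Sugt1, Vbp1, Grpel1, Grpel2, Cryab, Serpinh1, Dedd2, St13, Hspa5, Dnajb9 and Dnajc3 were picked from their lists after their values were seen. Coordinates and 3' end checks (last 400 bases, 50-base words, either strand) used GENCODE M21 on GRCm38. The name of 71 of 72 member identifiers matched it. Promoter windows are RefSeq's, GRCm38.p6. Figures were drawn with matplotlib 3.10.9.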

Additional observations from a re-analysis of the deposited data

How the results depend on the processing

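Over 8 alternative settings and 12 refits that each left out 1 library, every count of members called, in each of the 6 comparisons and both directions, stayed within 1.5 times its reported value, with 1 exception. The 12 members higher in mimetic than in deficient were 7 to 15 with 1 library left out, and the 7 came without mimetic replicate 2. In that refit the share of all genes called higher was also smaller, 9.39% against 12.6% in the reported fit. The cause was not tested. The other counts moved little when a library was left out, for example 27 to 31 around 31 for members higher in WT than in vector, and 25 to 29 around 28 for members lower in deficient than in WT. Of 492 pairs of a gene and a comparison followed through all settings, 100 lost or gained a call under at least 1 of them and 0 reversed a call. Scaling to raw library totals changed the most calls outside the left-out libraries, with 14 lost and 24 gained.

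Same-numbered libraries of different lines did not deviate together (correlations of -0.116 to 0.248 over 18 pairs, median 0.0137), so the numbers were not read as pairs. With the replicate block, 31 members were higher in WT than in vector, as in the reported fit, and 1 call was lost and 6 gained among those 492.

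Depth limited Cct6b, which at 3 to 12 counts per library was not tested. Reads shared with copies or overlapping genes limit Dnaja1, Hspa8, Dnajb13 and Hspe1 most, where over 50% of the 3' end was not unique.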
